A study of Homo sapiens with 24 samples.

Results

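Mesothelin, mucins and CEACAM proteins are glycoproteins that pancreatic ductal carcinoma displays or secretes, and several are targets of antibodies and engineered T cells. The 10 genes described here (MSLN, MUC1, MUC4, MUC16, MUC13, MUC20, MUC5AC, CEACAM5, CEACAM6 and CEACAM1) were taken by symbol, and all 10 were found among the 60366 entries of a table of RNA-seq read counts. The samples were BXPC3, MIAPACA2 and PSN1, established human pancreatic adenocarcinoma lines that carry the genotype label WT and that the series describes as MTAP-deleted. Each line received DMSO vehicle or AM-9747, an inhibitor of the arginine methyltransferase PRMT5 that cooperates with the methylthioadenosine accumulating in MTAP-deleted cells, until day 6. The dose was 100 nM in BXPC3 and PSN1 and 150 nM in MIAPACA2, which leaves the higher dose and the identity of that line confounded: they cannot be told apart. Each of the 6 groups held 4 libraries, 24 in all, and each line stands for 1 tumour.

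The proteins differ in how they sit at the membrane. Mesothelin, CEACAM5 and CEACAM6 are held by a glycosylphosphatidylinositol (GPI) anchor. MUC1, MUC4, MUC13, MUC16 and MUC20 cross the membrane and carry long O-glycosylated stretches outside it, and CEACAM1 crosses it with a cytoplasmic tail that can recruit phosphatases. MUC5AC is different again, a secreted gel-forming mucin of gastric and airway mucus that pancreatic lesions often switch on. MUC16, known clinically as CA125, binds mesothelin, and CEACAM5 is the carcinoembryonic antigen measured in serum.

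Library depth ran from 22.4 to 45.6 M counts (M, 1000000). Levels are given as counts per 1000000 (CPM) after TMM scaling over the 24 libraries, and 1 CPM stood for 22.4 counts in the shallowest library. The share of counts from the mitochondrial genome was 6.60 to 8.98% in BXPC3 vehicle, 4.34 to 10.2% in BXPC3 AM-9747 and 6.58 to 20.5% and 7.23 to 16.7% in the MIAPACA2 groups. It was 17.4 to 43.8% in PSN1 vehicle against 7.98 to 31.1% in PSN1 AM-9747. Genes detected in PSN1 vehicle ranged from 16646 to 24738. The summed level of 7 epithelial and ductal markers was 7330 to 12744 CPM in BXPC3 vehicle, 1383 to 1772 CPM in MIAPACA2 vehicle and 1771 to 2313 CPM in PSN1 vehicle. MIAPACA2 vehicle held only 4 of these 7 markers at a mean of 1 CPM or more, with the E-cadherin gene CDH1 at 0.130 CPM. Whether the replicates of a group were grown as separate cultures is not in the labels. A p-value here therefore reflects the spread among the libraries at hand, which may be technical.

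Promoter sequence from RefSeq (GRCh38.p14, from 250 bases before to 50 bases after the start) was matched for 7 of the 10 genes: MUC1, MUC4, MUC16, MUC13, CEACAM5, CEACAM6 and CEACAM1. MSLN, MUC20 and MUC5AC had no entry. Only the 250 bases before the RefSeq start were used, and these are the windows below. Those of MUC4, MUC13, CEACAM6 and CEACAM1 lie inside the gene as annotated by GENCODE 29. Of the 250 bases, 250 in MUC4, 109 in CEACAM6, 41 in CEACAM5 and 28 in CEACAM1 lie in GENCODE exons. The sequences below, all 5′ to 3′ on the gene's strand, are from some of the genes with an entry. The first set compares the neighbours CEACAM5 and CEACAM6, which fell together in BXPC3, with CEACAM1, which did not pass the test there. The response of CEACAM1 was not tested against that of the pair. Capitals mark CACGTG, the core of the E-box and identical on both strands, which begins at -46 from the start in CEACAM5 and at -45 in CEACAM6. The CEACAM5 stretch is chr19:41708568-41708597 on the plus strand, that of CEACAM6 is chr19:41755473-41755502 on the plus strand, and that of CEACAM1, aligned to the CEACAM5 stretch, is chr19:42528502-42528531 on the minus strand.
CEACAM5: acacccatgaccCACGTGatgctgagaagt
CEACAM6: gcacccatgaccCACGTGaccctgggaaat
CEACAM1: gccccagcacacatgatcagacaaagctct
CEACAM5 and CEACAM6 shared 25 of these 30 bases, and each shared 10 with CEACAM1. Over the whole windows the identity was 73.6% between CEACAM5 and CEACAM6, 63.5% between CEACAM5 and CEACAM1 and 67.6% between CEACAM6 and CEACAM1. CACGTG occurred in 6.34% of all 35116 windows of 250 bases, and the match is a description of the sequence. Binding was not measured.

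The second set shows MUC1 and MUC13, which moved in opposite directions in BXPC3 and in PSN1. Both runs end just before the RefSeq start, at chr1:155192917-155193165 on the minus strand for MUC1 and chr3:124934752-124935001 on the minus strand for MUC13. The MUC13 run lies inside the gene as annotated by GENCODE 29 (chr3:124905442-124953819), away from the annotated gene end. Capitals mark GGGCGG (the GC box), TATAAA (the TATA box) and GGAATG (the core recognised by TEAD factors), searched on both strands together with CACGTG and CCAAT.
MUC1: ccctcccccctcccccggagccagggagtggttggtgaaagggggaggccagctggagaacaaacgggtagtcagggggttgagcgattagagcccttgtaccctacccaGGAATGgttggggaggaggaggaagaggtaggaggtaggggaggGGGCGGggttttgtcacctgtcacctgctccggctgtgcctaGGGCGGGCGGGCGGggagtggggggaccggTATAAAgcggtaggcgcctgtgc
MUC13: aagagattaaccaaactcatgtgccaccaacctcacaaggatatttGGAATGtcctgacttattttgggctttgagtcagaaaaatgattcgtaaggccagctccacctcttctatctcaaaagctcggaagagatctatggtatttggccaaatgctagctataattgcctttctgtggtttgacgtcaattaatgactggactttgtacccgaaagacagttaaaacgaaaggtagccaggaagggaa
MUC1 held 4 matches to GGGCGG, 3 of them overlapping, and 1 to TATAAA beginning at -24, while MUC13 held neither. Both held GGAATG. Across all windows GGGCGG occurred in 42.6%, TATAAA in 10.7%, GGAATG in 11.9% and CCAAT in 32.0%.

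The 3 lines started from different sets of antigens. BXPC3 vehicle was the richest, with high CEACAM5, CEACAM6, MUC4, MSLN and MUC1, PSN1 vehicle was dominated by MUC5AC, and MIAPACA2 vehicle was low in all 10, with none above a mean of 10.3 CPM. In a fit of all 24 libraries (edgeR's quasi-likelihood test with Benjamini-Hochberg adjustment, adjusted p below 0.05 counting as passing), 10 of 10 genes were higher in BXPC3 than in MIAPACA2 vehicle, where 50.3% of all genes tested passed and 26.3% were higher. Against PSN1 vehicle, 8 were higher in BXPC3 and 2, MUC13 and MUC5AC, were lower, where 62.5% of all genes passed, 31.7% higher and 30.8% lower. Between MIAPACA2 and PSN1 vehicle, 7 of 10 passed, all lower in MIAPACA2, where 54.4% of all genes passed, 27.3% higher and 27.2% lower. For MUC16, MUC20, CEACAM6 and CEACAM1 the libraries of these groups overlapped. MUC16 had 12, 0, 50 and 15 counts in the PSN1 vehicle libraries. In bulk RNA, fewer cells that carry a transcript and less RNA per cell cannot be told apart.

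MSLN, which encodes the precursor of mesothelin, lies at chr16:760762-768865 on the plus strand (GENCODE 29 on GRCh38). In BXPC3 vehicle it stood at 200, 172, 200 and 290 CPM in the 4 libraries. MIAPACA2 vehicle gave 1.75, 0.797, 0.668 and 1.89 CPM, and PSN1 vehicle gave 0.621, 2.04, 0 and 0.561 CPM. The BXPC3 level was 170-fold above MIAPACA2 (log2 7.41 ± 0.61 SE, adjusted p 2.82e-10) and 266-fold above PSN1 (log2 8.06 ± 0.64, adjusted p 1.97e-10). MIAPACA2 and PSN1 vehicle overlapped and did not differ in the test (log2 0.65, 95% interval -0.49 to 1.78, adjusted p 0.332), except without PSN1 vehicle replicate 2, when MIAPACA2 was higher (log2 1.52, adjusted p 0.0257).

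MUC5AC was highest in PSN1. PSN1 vehicle held 1108, 1074.5, 1259 and 1105 CPM, BXPC3 vehicle held 0.0265 to 0.567 CPM, and all 4 MIAPACA2 vehicle libraries were at 0. The gene lies at chr11:1157953-1201138 on the plus strand. Against the floor of 3 counts per library, PSN1 was at least 14119-fold higher than MIAPACA2. MUC13, a transmembrane mucin of intestinal and gastric epithelium at chr3:124905442-124953819 on the minus strand, was likewise at 0 in all 8 MIAPACA2 libraries. It stood at 7.91 ± 2.16 CPM (SD, n = 4) in PSN1 vehicle and 4.37 ± 0.225 CPM in BXPC3 vehicle, which is at least 98.2-fold and 54.3-fold above MIAPACA2. The difference between BXPC3 and PSN1 vehicle (log2 -0.86 ± 0.27, adjusted p 0.0105) was not called without scaling (log2 -0.65, adjusted p 0.0729).

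CEACAM5 and CEACAM6 were at near equal levels in BXPC3 vehicle, 770 ± 68.1 and 767 ± 131 CPM, and near 0 elsewhere. CEACAM6 had 4 counts in 1 MIAPACA2 vehicle library and 0 in the other 7 MIAPACA2 libraries. MUC4 stood at 280 ± 53.3 CPM in BXPC3 vehicle and below 0.5 CPM in every vehicle library of the other lines. MUC16 stood at 12.3 ± 2.25 CPM in BXPC3 vehicle, at 0 in all 8 MIAPACA2 libraries and at 0 to 2.84 CPM in PSN1 vehicle, so the line with most mesothelin RNA also held most RNA of its ligand. MUC1, MUC20 and CEACAM1 were the members with more than 1 CPM in every library of every line. Their order was the same in each case, BXPC3 highest, then PSN1, then MIAPACA2, although MUC1 in MIAPACA2 and PSN1 vehicle did not differ in the test (log2 -0.62, 95% interval -1.23 to -0.01, adjusted p 0.0775) unless PSN1 vehicle replicate 1 was left out (log2 -0.94, adjusted p 0.00257). The lower CEACAM6 in MIAPACA2 than in PSN1 vehicle (adjusted p 0.0337) rests on 4 counts in 1 MIAPACA2 library against 0 to 13 counts in the PSN1 libraries and was lost without any of 5 of the 8 libraries: MIAPACA2 replicates 1, 3 and 4 and PSN1 replicates 1 and 4 (log2 -2.94 to -2.45, adjusted p up to 0.135).

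**Figure D1:**
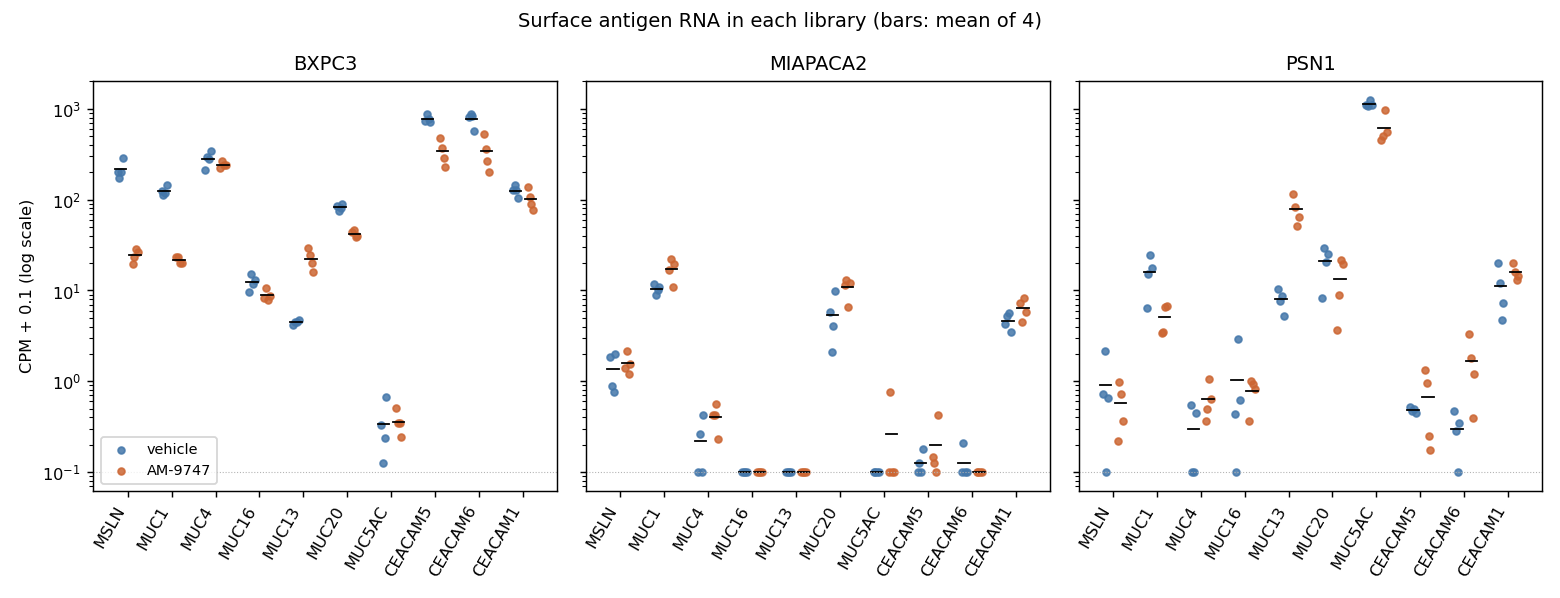
Level of each gene in each library, as CPM plus 0.1 on a log axis, with vehicle in blue, AM-9747 in orange and a bar at the mean of 4 libraries. The dotted line is 0 CPM. BXPC3 holds 9 of the 10 genes above 1 CPM in vehicle, while MUC5AC stands alone above 1000 CPM in PSN1 vehicle.

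Divided by the length of the annotated exons, which allows levels to be set between genes, the make-up of the 10 genes was distinct in each line. In BXPC3 vehicle CEACAM6 made up 38.8% of the summed CPM per kb, CEACAM5 35.4% and MSLN 12.99%. MUC4 made up only 2.03% on this scale because its exons span 21325 bases. MUC1 led in MIAPACA2 vehicle with 45.6%, followed by MUC20 and CEACAM1. MUC5AC made up 83.3% in PSN1 vehicle.

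In BXPC3, 5 of the 10 antigen genes were called lower after AM-9747 and 1 was called higher. Of 10 genes, 9 passed the filter on low counts and 6 were called: MSLN, MUC1, MUC20, CEACAM5 and CEACAM6 fell, and MUC13 rose. Over all 17638 genes tested in this line 29.2% were called (13.2% higher and 16.0% lower). The median log2 change of the 9 tested genes was -0.97, against 4.17e-05 over all genes tested. In each of the 6 the vehicle and AM-9747 libraries did not overlap, which was so for 32.2% of all genes tested (15.0% higher and 17.2% lower). MUC5AC was not tested, at 0.0265 to 0.567 CPM in all 8 libraries.

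MSLN fell furthest. AM-9747 libraries of BXPC3 held 19.3, 23.2, 28.6 and 26.7 CPM, against 172 to 290 CPM in vehicle, so the highest treated library was well below the lowest vehicle library. The change was 8.79-fold lower (log2 -3.14 ± 0.20 SE, adjusted p 2.07e-05), the 3rd largest fall among 11152 genes with a mean of 5 CPM or more in the line. It stayed between log2 -3.23 and -2.93 under every alternative tried. Even after this fall, every treated BXPC3 library held more MSLN than any library of MIAPACA2 or PSN1.

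The nearest tested genes around MSLN were examined for the same change. Upstream, CIAO3, an iron-sulfur cluster assembly factor ending 19.4 kb away, fell (log2 -1.10 ± 0.21, adjusted p 0.00341). HAGHL (log2 -0.26, adjusted p 0.545) and CCDC78 (log2 -0.71, adjusted p 0.236) did not pass. Downstream, CHTF18 did not pass (log2 -0.05, adjusted p 0.910). RPUSD1 was at the threshold (log2 -0.60, adjusted p 0.0497) and was lost in the joint fit, with a minimum of 5 CPM and without each library but vehicle replicates 2 and 4 (adjusted p 0.0706 to 0.183 over these). LMF1, a lipase maturation factor 84.8 kb away, fell from 1.62 to 0.138 CPM (log2 -3.53 ± 0.65, adjusted p 0.00322). The 5 nearest neighbours all had smaller changes than MSLN, and LMF1, from a level near 1 CPM, had a larger one. The difference between MSLN and its neighbours was not tested.

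**Figure D2:**
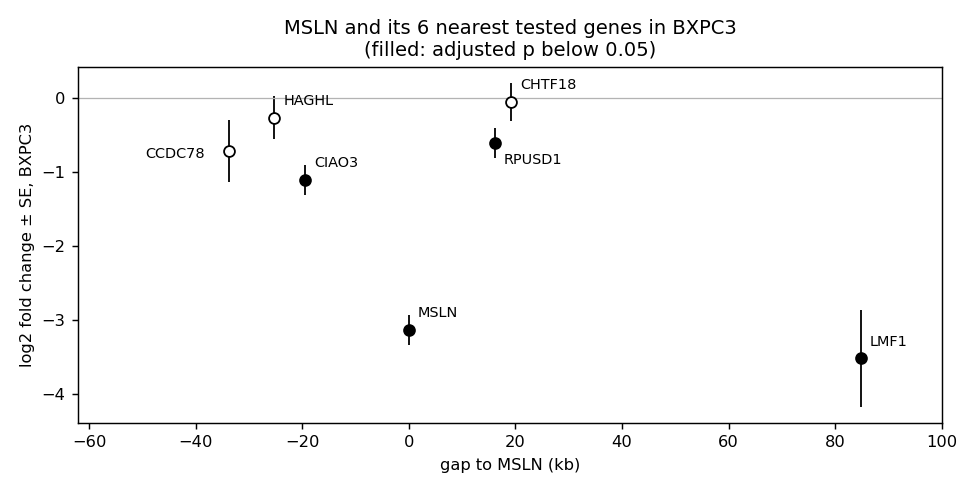
Fitted log2 fold change (± SE) in BXPC3 of MSLN and the 3 nearest tested genes on each side, against the gap to MSLN in kb, with filled points for adjusted p below 0.05. MSLN at -3.14 stands far below the 5 nearest neighbours, which lie between -1.10 and -0.05.

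MUC1, the epithelial membrane mucin whose cytoplasmic tail takes part in signalling, fell in BXPC3 with little spread among the treated libraries. Vehicle libraries of BXPC3 held 123, 113, 118 and 146 CPM and AM-9747 libraries 23.1, 23.3, 20.03 and 20.2 CPM. The fall was 5.77-fold (log2 -2.53 ± 0.13, adjusted p 8.58e-06), the 23rd largest of the 11152 genes. MUC20, which binds the MET receptor, fell by a smaller amount, from 84.3, 75.1, 81.0 and 88.7 CPM to 43.6, 46.3, 38.7 and 39.4 CPM (1.95-fold lower, log2 -0.97 ± 0.11, adjusted p 0.00027). MUC20 shares 1820 exon bases on the same strand with the long noncoding RNA MUC20-OT1, which went from 53.8 to 34.9 CPM, and the pseudogene MUC20P1 went from 13.9 to 6.84 CPM, so how reads were split among these genes is uncertain.

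The neighbouring MUC4 lies 5642 bases from MUC20 on chromosome 3. MUC4, a large mucin that binds ERBB2, held 211, 295, 276 and 339 CPM in vehicle and 225, 266, 243 and 239 CPM in AM-9747. These ranges overlapped and the change did not pass (log2 -0.20, 95% interval -0.54 to 0.14, adjusted p 0.348). The ratio of MUC20 to MUC4 CPM was 0.255 to 0.400 in vehicle and 0.160 to 0.194 in AM-9747, with no overlap. MUC16, the mesothelin ligand, gave 9.60 to 14.9 CPM in vehicle and 7.70 to 10.6 CPM in AM-9747, which did not pass (log2 -0.48, adjusted p 0.0654). Without vehicle replicate 1 it passed (log2 -0.59, adjusted p 0.0418).

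CEACAM5 and CEACAM6, GPI-anchored adhesion proteins encoded 21179 bases apart on chromosome 19, fell by nearly the same factor. CEACAM5 went from 728, 868, 764 and 720 CPM to 478, 370, 287 and 230 CPM (2.26-fold lower, log2 -1.17 ± 0.20, adjusted p 0.00231). CEACAM6 went from 802, 868, 825 and 575 CPM to 530, 359, 263 and 203 CPM (2.27-fold lower, log2 -1.18 ± 0.27, adjusted p 0.00929). AM-9747 replicate 1 was the highest and replicate 4 the lowest for both, and the ratio of CEACAM6 to CEACAM5 was 0.799 to 1.10 in vehicle and 0.880 to 1.11 in AM-9747. The pair thus kept its ratio while both levels fell. The mitochondrial share of treated replicates 1 to 4 was 4.34, 6.16, 8.66 and 10.2%, lowest where both genes were highest, and its part in this spread was not tested. CEACAM1, the transmembrane inhibitory member of the family, held 105 to 145 CPM in vehicle and 75.9 to 137 CPM in AM-9747 and did not pass (log2 -0.29, 95% interval -0.69 to 0.11, adjusted p 0.258). By limma voom with quality weights it was called lower (log2 -0.41, adjusted p 0.00984).

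MUC13 was the single gene of the set to rise in BXPC3. Vehicle libraries held 4.09, 4.39, 4.36 and 4.64 CPM and AM-9747 libraries 29.03, 24.5, 19.9998 and 15.9 CPM. The treated level was highest in replicate 1, the library of lowest mitochondrial share, and lowest in replicate 4, that of the highest. The rise was 5.11-fold (log2 2.35 ± 0.19, adjusted p 5.44e-05), the 14th largest among the 11152 genes. MUC13 thus went from 0.0318 to 0.0388 of the MUC1 level in vehicle to 0.786 to 1.25 of it in AM-9747.

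MUC20, CEACAM5 and CEACAM6 passed in the fit of BXPC3 alone but not in the fit that shares 1 estimate of spread over the 3 lines (adjusted p 0.18, 0.0952 and 0.107), in which the spread was 46.4% against 26.6% in BXPC3 alone. The summed epithelial and ductal markers of BXPC3 ran from 7330 to 12744 CPM in vehicle and from 5263 to 7697 CPM in AM-9747, with 1 of 7, KRT19, called lower. The summed fibroblast markers ran from 26.9 to 30.8 CPM in vehicle and from 43.9 to 54.5 CPM in AM-9747, with 3 of 3 tested called higher. Of the leukocyte and endothelial markers VWF and CDH5 were called higher and CD68 and PECAM1 lower, with sums of 46.6 to 53.4 CPM and 34.7 to 53.5 CPM and with MS4A1 at 0 in both groups. The part of these markers in the antigen changes was not tested.

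**Figure D3:**
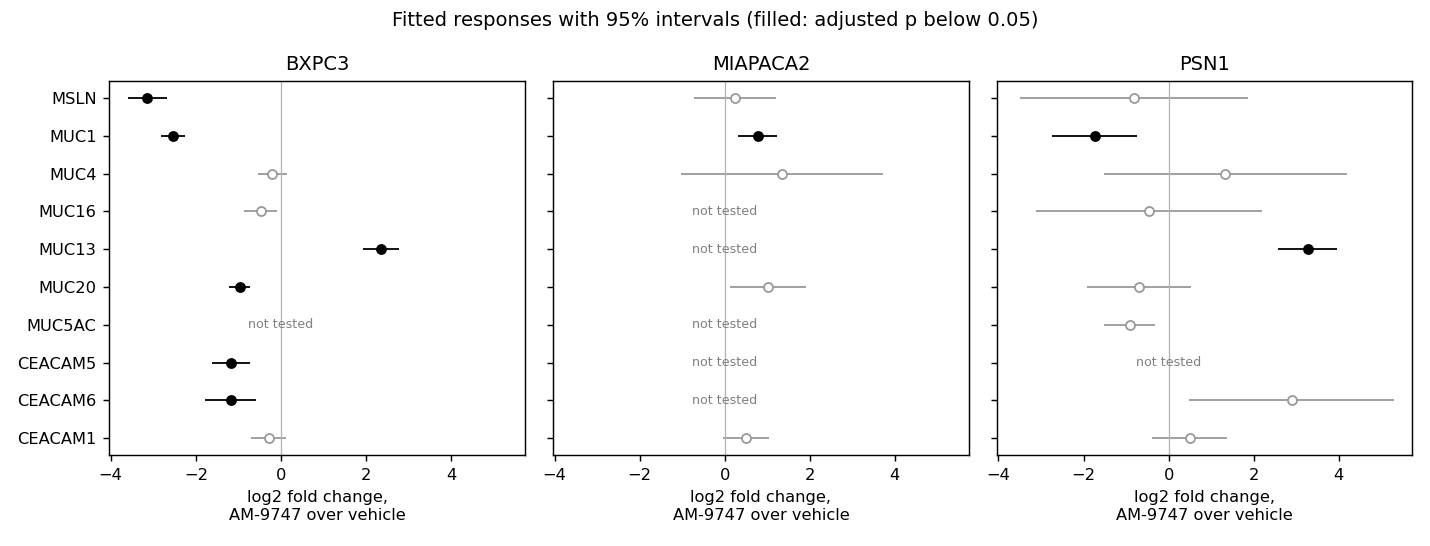
Fitted log2 fold change of AM-9747 over vehicle with its 95% interval for each gene in each line, with filled points for adjusted p below 0.05. MSLN at -3.14 and MUC1 at -2.53 are the largest falls in BXPC3, and MUC13 lies at 2.35 in BXPC3 and 3.27 in PSN1.

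In PSN1, MUC13 rose and MUC1 fell. Of 9 genes tested (CEACAM5 was left out by the filter), 2 were called, where 10.7% of all 18287 genes were called (4.52% higher and 6.17% lower). The median log2 change was -0.46 over the 9 and 0.04 over all genes, and without scaling -0.12 and 0.37, with 1 gene called higher and 0 lower by edgeR. The vehicle and AM-9747 libraries did not overlap for 1 gene upward, MUC13, and 1 downward, MUC5AC, where 21.4% of all genes had no overlap (11.7% higher and 9.72% lower).

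MUC13 went from 10.3, 7.65, 8.57 and 5.12 CPM in PSN1 vehicle to 115, 82.8, 51.5 and 64.4 CPM in AM-9747. The rise was 9.63-fold (log2 3.27 ± 0.31, adjusted p 0.000532), the 13th largest among 11586 genes with a mean of 5 CPM or more. It was as large without the 2 vehicle libraries of highest mitochondrial share, replicates 2 and 3 (log2 3.33, adjusted p 0.00776). Within each group MUC13 was highest in replicate 1, the library of lowest mitochondrial share. The part of this share in the rise was not tested. The rise in PSN1 was not shown to differ from that in BXPC3 (log2 difference -0.96, BXPC3 minus PSN1, 95% interval -1.74 to -0.17, adjusted p 0.117), but leaving out PSN1 vehicle replicate 1 brought it past the threshold (log2 -1.15, adjusted p 0.0367).

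MUC1 went from 6.27, 15.2, 24.6 and 17.6 CPM to 3.33, 3.43, 6.47 and 6.61 CPM. Vehicle replicate 1 lay below the highest treated libraries, so the groups overlapped. The mitochondrial share of treated replicates 1 to 4 was 7.98, 14.1, 26.8 and 31.1%, lowest where MUC1 was lowest. In vehicle it was 17.4, 43.8, 37.6 and 33.5%, again lowest in the library of lowest MUC1. The part of this share in the MUC1 values was not tested. The fall (3.32-fold, log2 -1.73 ± 0.45, adjusted p 0.0357) was lost without each library but vehicle replicate 1 (log2 -1.89 to -1.41, adjusted p 0.0615 to 0.124), without vehicle replicates 2 and 3 together (log2 -1.28, adjusted p 0.174) and without scaling (log2 -1.39, adjusted p 0.0578).

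MUC5AC held 1108, 1074.5, 1259 and 1105 CPM in PSN1 vehicle and 450, 498, 973 and 553 CPM in AM-9747. Treated replicate 3 stood near the vehicle level and the other treated libraries were at roughly the same lower level. The groups did not overlap, but the difference did not pass (1.89-fold lower, log2 -0.92 ± 0.27, adjusted p 0.0561). It passed without treated replicate 3 (log2 -1.23, adjusted p 0.0204) or vehicle replicate 1 (log2 -0.95, adjusted p 0.0371) and with DESeq2 (adjusted p 0.0103), limma voom (adjusted p 0.00678), a minimum mean of 5 CPM (adjusted p 0.0354) or no mitochondrial genes (adjusted p 0.045). It did not pass with no filter, with the shared spread, without scaling or without vehicle replicates 2 and 3.

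The other PSN1 values were low or overlapping. CEACAM6 went from 0.367, 0.185, 0 and 0.245 CPM to 3.26, 1.70, 0.297 and 1.11 CPM, which did not pass in the line's own fit (log2 2.89 ± 1.09, adjusted p 0.113) and passed with DESeq2 (adjusted p 0.0299) and in the joint fit (adjusted p 0.00327). Every BXPC3 library held more than 202 CPM of this gene. MUC20 ran from 8.24 to 28.97 CPM in vehicle and from 3.55 to 21.5 CPM in AM-9747 (adjusted p 0.444). CEACAM1 ran from 4.65 to 19.98 CPM and from 13.1 to 20.03 CPM (adjusted p 0.447). Within each group MUC20 was lowest and CEACAM1 highest in replicate 1, the library of lowest mitochondrial share. MSLN, MUC4 and MUC16 stayed below 3 CPM in every library, with adjusted p of 0.696, 0.536 and 0.837.

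Markers of other cell types moved in PSN1 as well. PRSS1, the trypsinogen gene of acinar cells, was at 80.1 to 105 CPM in vehicle and 0.344 to 1.96 CPM in AM-9747, while 5 of the 7 acinar and endocrine markers were at 0 in both groups. The summed fibroblast markers went from 42.1 to 62.3 CPM to 148 to 179 CPM, with 1 of 4 tested, COL3A1, called higher. Of 3 leukocyte and endothelial markers tested, 1, PECAM1, was called lower. Among 7 epithelial and ductal markers tested, 0 were called. Their part in the antigen values was not tested.

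In MIAPACA2 few of the genes were measurable, and the fitted changes of those tested ran from log2 0.24 to 1.35. Of 10 genes, 5 were tested and 1, MUC1, was called, where 13.6% of all 18090 genes were called (6.73% higher and 6.84% lower). For none of the 10 did the vehicle and AM-9747 libraries part without overlap, which they did for 20.9% of all genes tested (9.88% higher). The median log2 change was 0.78 over the 5 and -0.00214 over all genes. MUC1 rose from 11.6, 8.82, 9.98 and 10.8 CPM to 16.8, 22.1, 10.9 and 19.6 CPM (1.71-fold, log2 0.78 ± 0.21, adjusted p 0.0353), with treated replicate 3 inside the vehicle range. The call was lost without each library but treated replicate 3 and vehicle replicate 4 (log2 0.63 to 0.84, adjusted p 0.0586 to 0.117) and in the joint fit (log2 0.75, adjusted p 0.157).

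MUC20 in MIAPACA2 went from 5.73, 1.98, 3.97 and 9.68 CPM to 11.3, 13.03, 6.54 and 11.9 CPM and did not pass (log2 1.02 ± 0.41, adjusted p 0.123). It passed without vehicle replicate 4 (log2 1.48, adjusted p 0.0233) and by limma voom with quality weights (log2 1.38, adjusted p 0.00727). CEACAM1 held 3.40 to 5.50 CPM and 4.37 to 8.27 CPM (log2 0.51, adjusted p 0.197). MSLN held 0.668 to 1.89 CPM and 1.11 to 2.07 CPM (log2 0.24, 95% interval -0.73 to 1.21, adjusted p 0.754). MUC4, near 0 at 0 to 0.324 CPM and 0.133 to 0.465 CPM, did not pass (log2 1.35 ± 1.08, adjusted p 0.444). By limma voom with quality weights MUC4 was called higher (log2 3.21, adjusted p 0.0448). For the genes at 0 counts here, up to 3 counts per library remain possible, and these limits cover counting error only.

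The responses differed between lines for 3 of the 10 genes, MSLN, MUC1 and CEACAM6 (F test in the joint fit, adjusted p 0.00624, 5.14e-05 and 0.00514), where 12.1% of all 22883 genes passed. By pair of lines, the difference passed for 2.07% of all genes between BXPC3 and MIAPACA2 (0.581% higher and 1.49% lower), for 8.33% between BXPC3 and PSN1 (3.58% and 4.75%) and for 10.4% between MIAPACA2 and PSN1 (4.8% and 5.64%). These counts of 474, 1906 and 2388 genes depended on single libraries, with 307 to 793, 1132 to 5279 and 1412 to 5392 genes when 1 was left out, the last 2 highest without PSN1 vehicle replicate 1 and the first highest without PSN1 vehicle replicate 3. MUC1 showed the clearest contrast, falling in BXPC3 and in PSN1 and rising in MIAPACA2. In PSN1 and in MIAPACA2 the groups overlapped, and each line's call was lost without most of the single libraries. The MUC1 response differed by log2 -3.28 ± 0.42 between BXPC3 and MIAPACA2 (adjusted p 8.57e-05) and by log2 2.43 ± 0.42 between MIAPACA2 and PSN1 (adjusted p 0.000761). BXPC3 and PSN1 did not differ in the test (log2 -0.85, 95% interval -1.71 to 0.01, adjusted p 0.197).

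The MSLN response differed between BXPC3 and MIAPACA2 (log2 -3.37 ± 0.69, adjusted p 0.00911). Between BXPC3 and PSN1 it did not pass (log2 -2.37 ± 0.76, adjusted p 0.0548), but it passed without PSN1 treated replicate 1, vehicle replicate 1 or vehicle replicate 2 (adjusted p 0.0328, 0.0464 and 0.0104). CEACAM6 differed between BXPC3 and PSN1 (log2 -4.01 ± 0.79, adjusted p 0.00413), where the PSN1 side rests on levels of at most 3.26 CPM and limma voom gave adjusted p 0.1. Over the 3 lines the CEACAM6 difference did not pass by limma voom (adjusted p 0.0882). That of MUC13 passed by limma voom (adjusted p 0.00312) but not by edgeR (adjusted p 0.193). MUC13 was at 0 in every MIAPACA2 library, so no response of that line was measured. MUC20 did not pass over the 3 lines (adjusted p 0.0657). It passed by DESeq2 (adjusted p 0.0265), by limma voom (adjusted p 0.00284), with a minimum mean of 5 CPM (adjusted p 0.0486) and without scaling (adjusted p 0.0339), as well as without MIAPACA2 vehicle replicate 4, PSN1 vehicle replicate 1 or PSN1 treated replicates 1 or 3 (adjusted p 0.0192 to 0.0466). CEACAM5 (adjusted p 0.0928) passed without PSN1 treated replicate 4 (adjusted p 0.0465), and CEACAM1 (adjusted p 0.29) without PSN1 vehicle replicate 1 (adjusted p 0.0279). MUC5AC did not pass over the 3 lines (adjusted p 0.0902) and passed by DESeq2 (adjusted p 0.0209). Its response differed between MIAPACA2 and PSN1 (adjusted p 0.0494), where the MIAPACA2 side holds 27 counts in 1 treated library and 0 in the other 7.

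After AM-9747 the make-up of the 10 genes per kb had moved in BXPC3 and PSN1. CEACAM6 and CEACAM5 still led in BXPC3, at 40.6 and 37.2%, while MSLN went from 12.99 to 3.49%. In PSN1 MUC13 went from 2.89 to 34.0% and MUC5AC from 83.3 to 53.8%. In MIAPACA2 MUC1 stayed first, at 46.1%. These are shares of group means, with no test.

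**Figure D4:**
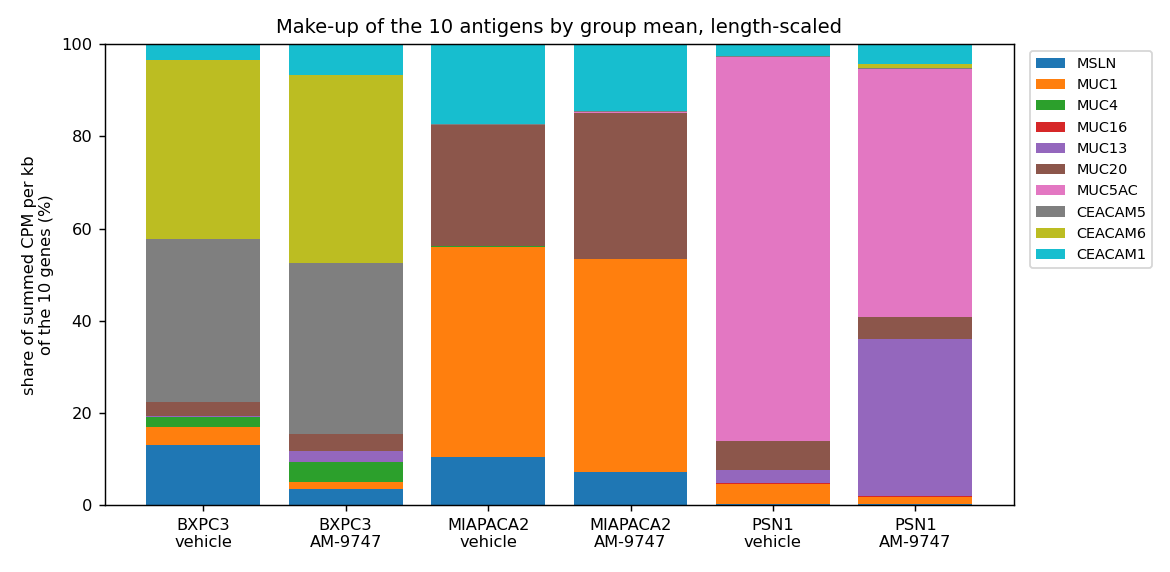
Share of the summed CPM per kb of exon that each of the 10 genes takes, as stacked bars of group means for the 6 groups. CEACAM5 and CEACAM6 fill most of both BXPC3 bars, MUC5AC fills 83.3% of PSN1 vehicle, and MUC13 reaches 34.0% in PSN1 AM-9747.

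Other members of the mucin and CEACAM families were read from fixed lists. Over all genes tested, 13.2% were called higher and 16.0% lower in BXPC3. The shares were 6.73% and 6.84% in MIAPACA2 and 4.52% and 6.17% in PSN1. Among 16 other mucin genes, PSN1 lost RNA of MUC6 and MUC5B, gel-forming mucins that neighbour MUC5AC in the chromosome 11 cluster. MUC6 held 64.4, 137, 104 and 94.7 CPM in vehicle and 6.76, 13.1, 21.7 and 15.4 CPM in AM-9747 (7.28-fold lower, log2 -2.86 ± 0.38, adjusted p 0.00262). MUC5B held 92.3, 109, 104 and 126 CPM and 26.6, 31.8, 45.6 and 27.9 CPM (3.38-fold lower, log2 -1.76 ± 0.24, adjusted p 0.00288). For MUC5AC, MUC6 and MUC5B treated replicate 3 was the highest of the treated libraries. Of 6 tested in PSN1, 1 rose and 2 fell, with a median log2 change of -0.62.

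OVGP1, the oviductal mucin-like glycoprotein, was called higher in all 3 lines. Its level went from 4.83 CPM in BXPC3 vehicle to 12.9 CPM (log2 1.43, adjusted p 0.00664), and from 1.337 CPM in MIAPACA2 vehicle to 6.91 CPM (log2 2.39, adjusted p 0.00694). The PSN1 level went from 13.7 to 44.4 CPM (log2 1.65, adjusted p 0.0452), a call lost without each library but replicate 1 of either group (adjusted p 0.0602 to 0.117). The other mucin called in BXPC3 was MUCL1 (log2 2.19, adjusted p 0.00121), and 0 of the 6 tested there were called lower. None of the 9 other CEACAM genes was called in any line, with 1 or 2 of them tested per line. The pregnancy-specific glycoproteins, secreted relatives encoded beside the CEACAM genes, gave 0 higher and 3 lower of 7 tested in BXPC3 and 3 higher and 0 lower of 4 in MIAPACA2. The shares over all genes tested were 13.2% higher and 16.0% lower in BXPC3 and 6.73% and 6.84% in MIAPACA2. PSG4 was called in both, from 1.98 to 0.710 CPM in BXPC3 (log2 -1.47, adjusted p 0.00252, and 0.153 in the joint fit) and from 1.73 to 8.45 CPM in MIAPACA2 (log2 2.31, adjusted p 0.000333). These genes are near-identical copies, so the split of reads among them is uncertain.

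Of the enzymes that build the mucin-type O-glycans, 1 was called higher and 9 lower of 25 tested in BXPC3, where 13.2% of all genes were called higher and 16.0% lower. The list's median log2 change was -0.35. ST6GALNAC1, which caps the first sugar with sialic acid to give the sialyl-Tn antigen, fell from 9.88 to 1.80 CPM (log2 -2.45 ± 0.22, adjusted p 7.61e-05). GALNT12, which starts O-glycan chains, fell from 93.5 to 38.9 CPM (log2 -1.26 ± 0.12, adjusted p 0.000106), and ST6GALNAC2 fell from 134 to 57.0 CPM (log2 -1.22 ± 0.13, adjusted p 0.000191). In PSN1 GALNT12 fell too, 86.9 CPM against 38.2 CPM (log2 -1.23 ± 0.25, adjusted p 0.0129), a call lost without treated replicate 2 (log2 -1.14, adjusted p 0.0634) or without vehicle replicates 2 and 3 (log2 -1.06, adjusted p 0.066). In all, 1 of 25 was higher and 2 lower in PSN1, where the list's median was 0.17. Over all genes tested, 4.52% were called higher and 6.17% lower in PSN1, against 6.73% and 6.84% in MIAPACA2. In MIAPACA2 1 of 18 was higher and 1, GALNT11, lower, at 93.5 CPM against 59.8 CPM (log2 -0.62 ± 0.13, adjusted p 0.0103), with a median of -0.13 that was 0.01 without scaling.

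Genes of GPI anchor synthesis, which supply the anchor of mesothelin, CEACAM5 and CEACAM6, were lower in all 3 lines where called, with 1 exception. BXPC3 gave 1 higher (PIGC) and 12 lower of 27 tested, MIAPACA2 gave 5 lower and PSN1 gave 4 lower of 27. Over all genes tested, 16.0%, 6.84% and 6.17% were called lower in these lines. The median log2 changes were -0.41, -0.31 and -0.32, and without scaling they were -0.41, -0.17 and -0.02. PIGQ, part of the enzyme that makes the first intermediate, fell in each line, from 18.8 to 4.09 CPM in BXPC3 (log2 -2.19 ± 0.20, adjusted p 7.82e-05), from 45.0 to 18.0 CPM in MIAPACA2 (log2 -1.30 ± 0.17, adjusted p 0.00125) and from 32.9 to 8.50 CPM in PSN1 (4.01-fold lower, adjusted p 0.00918). GPAA1, a subunit of the transamidase that attaches the anchor, fell from 52.0 to 12.4 CPM in BXPC3 (log2 -2.07 ± 0.19, adjusted p 8.03e-05) and from 68.5 to 30.3 CPM in MIAPACA2 (log2 -1.15 ± 0.13, adjusted p 0.00068). In BXPC3 the level of PIGP fell, 9.05 CPM against 1.28 CPM (log2 -2.82 ± 0.24, adjusted p 6.36e-05), and PIGZ fell in MIAPACA2 (log2 -1.57 ± 0.16, adjusted p 0.000424) and in PSN1 (log2 -2.19 ± 0.40, adjusted p 0.00857). The labels and counts give RNA only, so the surface protein was not measured.

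Among 14 processing enzymes and binding partners, BXPC3 gave 1 higher and 3 lower, with a median log2 change of -0.22. FURIN, the convertase that cuts the mesothelin precursor, fell from 106 to 65.3 CPM (log2 -0.70 ± 0.12, adjusted p 0.00212). ERBB2, the MUC4 partner, fell from 121 to 78.2 CPM (log2 -0.63 ± 0.11, adjusted p 0.00234) and ERBB3 from 165 to 88.3 CPM (log2 -0.90 ± 0.10, adjusted p 0.000277), and neither passed in the joint fit. MIAPACA2 gave 1 higher and 1 lower of 14, and PSN1 gave 0 and 0 of 13 by edgeR, with medians of -0.16 and 0.48. Of all genes tested, 13.2% were higher and 16.0% lower in BXPC3. The same shares were 6.73% and 6.84% in MIAPACA2 and 4.52% and 6.17% in PSN1. PTPN6, a phosphatase recruited by CEACAM1, was the gene called higher in MIAPACA2, at 0.934 CPM against 2.67 CPM (log2 1.54, adjusted p 0.0175), a call lost without treated replicate 1 or 4 (adjusted p 0.0525 and 0.0566).

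Other surface antigens of pancreatic carcinoma moved in both directions. In BXPC3 2 of 25 rose and 6 fell, with a median log2 change of -0.17. PSCA, the prostate stem cell antigen, fell from 30.6 to 5.67 CPM (log2 -2.43 ± 0.27, adjusted p 0.000217), TSPAN1, a tetraspanin, from 326 to 72.1 CPM (log2 -2.17 ± 0.13, adjusted p 1.65e-05), and LY6E, a GPI-anchored antigen, from 521 to 225 CPM (log2 -1.21 ± 0.17, adjusted p 0.000751). TSPAN1 also fell in MIAPACA2, where vehicle held 61.5 CPM and AM-9747 held 23.4 CPM (log2 -1.37 ± 0.20, adjusted p 0.00204), though not in the joint fit (adjusted p 0.163). In MIAPACA2 3 of 19 rose and 3 fell, with a median of -0.02 (0.13 without scaling), and in PSN1 1 of 24 rose and 1 fell, with a median of 0.15. The PSN1 fall was ITGB4, the integrin beta 4 subunit, from 99.6 to 37.6 CPM (log2 -1.45 ± 0.24, adjusted p 0.00606).

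Transcription factors of epithelial identity moved in both directions in BXPC3, with 4 higher and 2 lower of 12 and a median log2 change of 0.13. ELF3, an epithelial ETS factor, fell from 167 to 94.2 CPM (log2 -0.82 ± 0.13, adjusted p 0.00159). CDX2, an intestinal homeobox factor, rose from 0.993 to 2.16 CPM (log2 1.12 ± 0.26, adjusted p 0.0101) but not in the joint fit. In MIAPACA2 0 of 8 were called by edgeR, with a median of -0.27, and in PSN1 1 of 9 was higher and 1 lower, with a median of 0.18. The shares over all genes tested were 13.2% higher and 16.0% lower in BXPC3. They were 6.73% and 6.84% in MIAPACA2 and 4.52% and 6.17% in PSN1. HNF4A, a factor of gut and liver epithelium, was the gene called higher in PSN1, at 4.72 CPM against 10.5 CPM (log2 1.10 ± 0.30, adjusted p 0.0381), a call lost in the joint fit (adjusted p 0.166) and without each library but vehicle replicates 1 and 3 (adjusted p 0.0823 to 0.111).

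Other called genes of these lists had calls that rested on some libraries or on the line's own spread. In MIAPACA2 MUC3A (log2 1.55, adjusted p 0.0208) was lost without treated replicate 1 or 4 (adjusted p 0.0688 and 0.06), and PSG9 (log2 2.09, adjusted p 0.000223) only in the joint fit (adjusted p 0.0569). GALNT12 was higher there (log2 1.13, adjusted p 0.0421), a call lost without each library but treated replicate 3 and vehicle replicate 1 (adjusted p 0.0617 to 0.147). ERBB3 (log2 -0.50, adjusted p 0.0416) and CDH3 (log2 1.48, adjusted p 0.0345) were lost without each library but treated replicate 3 and vehicle replicate 4 (adjusted p 0.0687 to 0.13 over both). LY6E (log2 -0.62, adjusted p 0.0175) was lost without treated replicates 1, 2 or 4 or vehicle replicate 3 (adjusted p 0.0521 to 0.068).

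In PSN1 GALNT7 (log2 -1.24, adjusted p 0.0343) and GALNT2 (log2 0.89, adjusted p 0.0218) were lost without each library but vehicle replicates 1 and 3 (adjusted p 0.0507 to 0.111 over both). PGAP3 (log2 -1.62, adjusted p 0.0152) was lost without replicate 2 or 4 of either group (adjusted p 0.0517 to 0.059). TM4SF1, a tetraspanin-like antigen (log2 0.83, adjusted p 0.047), was lost without each library but vehicle replicate 1 (adjusted p 0.0522 to 0.154), and KLF4, an epithelial zinc finger factor (log2 -1.44, adjusted p 0.0279), without treated replicates 2, 3 or 4 or vehicle replicates 2 or 4 (adjusted p 0.0739 to 0.0869). In BXPC3 FOXA2, an endoderm factor (log2 0.74, adjusted p 0.0179), was lost without treated replicate 3 or vehicle replicates 1, 2 or 3 (adjusted p 0.0513 to 0.058).

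**Figure D5:**
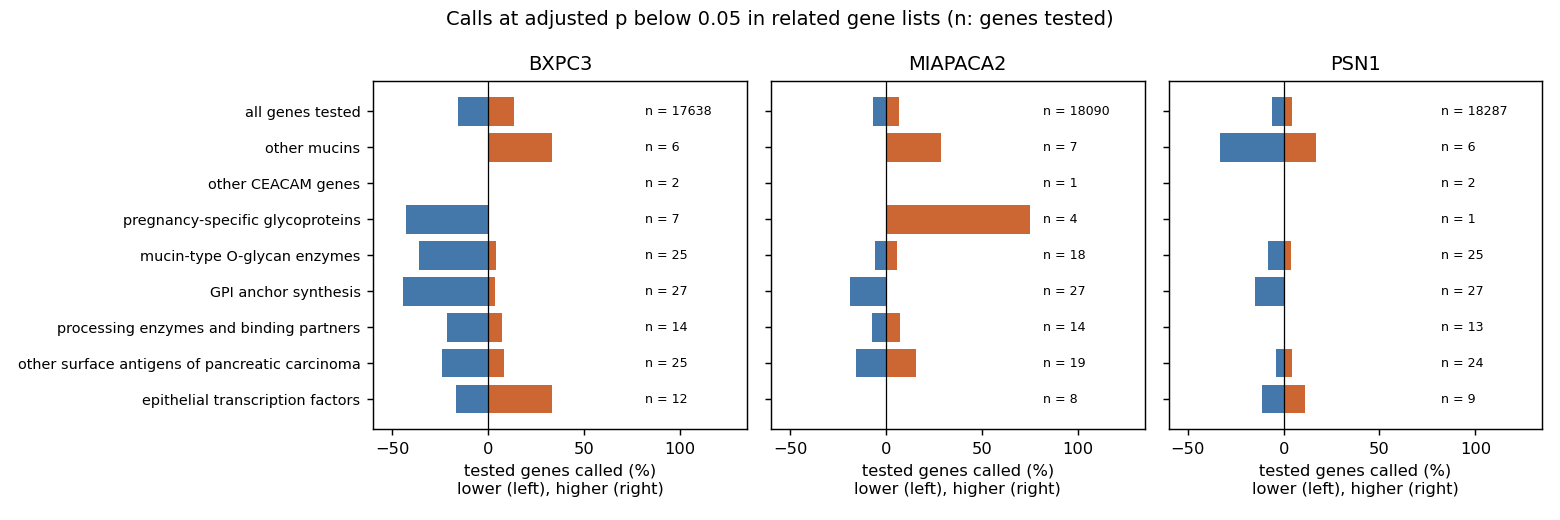
Share of the tested genes of each list called lower (left, blue) or higher (right, orange) by AM-9747 in each line, with the number tested and all genes tested as the top bar. GPI anchor synthesis shows 12 of 27 lower in BXPC3, 5 of 27 in MIAPACA2 and 4 of 27 in PSN1.

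Among the genes whose log2(CPM + 0.1) followed MSLN most closely over the 24 libraries were UPK3B (Pearson r 0.963), TMCO4 (0.961), TNNC1 (0.957) and EML2 (0.956). UPK3B, a uroplakin that is also a mesothelial marker, went from 468 to 97.7 CPM in BXPC3. It carried most of the mesothelial marker sum of BXPC3 vehicle, 386 to 599 CPM, while the defining markers WT1 and CALB2 were at 0 in these libraries. Of the 2 mesothelial markers tested in BXPC3, UPK3B was called lower and PDPN was called higher (log2 0.885). For MUC1 the closest genes were MEGF6 (0.917), RAPGEFL1 (0.904), SSH3 (0.899), TRIM7 (0.898) and IQANK1 (0.896). For CEACAM6 they included TRIM29 (0.990), KIAA1522 (0.989), CDH1 (0.989) and SERPINB5 (0.989). CDH1 held 581 CPM in BXPC3 vehicle and 0.625 CPM in PSN1 vehicle. These correlations rest largely on the difference between 3 lines and are given as a description with no test.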

How the data were processed

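RNA was measured in 24 libraries, per the labels from poly(A) RNA with the NEBNext Ultra II Directional kit. The authors deposited raw read counts per gene for 60366 entries, and 0 columns were left unmatched to a sample. The tools named in the submitters' processing notes are HISAT2 2.2.0, fastp 0.19.8, DESeq2 1.34.0 and R 4.0.2, with GRCh38 as the build. Which program counted the reads, with which strand setting and annotation, is not given in the sources used here, so reads of overlapping genes (MUC20 and MUC20-OT1, CEACAM1 and the antisense LIPE-AS1) may be shared. By stable ID 56271 entries matched GENCODE 29, which gave coordinates and exon lengths.

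Each line's AM-9747 response was fitted alone (8 libraries) with edgeR 4.0.16, quasi-likelihood, TMM scaling and filterByExpr, in R 4.3.3, because the biological coefficient of variation differed (26.6% in BXPC3, 32.1% in MIAPACA2, 55.1% in PSN1). Differences of responses and vehicle levels came from a joint fit of 24 libraries (46.4%). P-values were adjusted by Benjamini-Hochberg over all genes tested, with 0.05 as threshold. The procedure was run on simulated counts drawn independently for each gene and library. Shifts of library quality shared by many genes were not simulated. A fold against a group at 0 uses a floor of 3 counts per library. A median log2 change describes a list and has no test. Alternatives were DESeq2 1.42.0, limma 3.58.1 voom with quality weights, the joint fit, no scaling, no filter, a mean of 5 CPM, no mitochondrial genes, a replicate block and leaving out each library. One, without PSN1 vehicle replicates 2 and 3 together, was chosen after seeing the data.

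The members and lists were chosen with earlier results of these data known. Named were all 10 members, from each list and line up to 3 called genes with a mean of 1 CPM or more by size of change, 3 tested neighbours of MSLN each side, and the 5 protein-coding genes most correlated with MSLN, MUC1 and CEACAM6, of which some are not reported here. PRSS1, KRT19, CDH1 and other cell type markers were named after their values were seen where that rule did not name them. The same holds for PIGC and the genes that overlap members.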

Additional observations from a re-analysis of the deposited data

Results flagged for a closer look

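Of 54 groups of 4 libraries with any spread (10 genes in 6 groups), 3 held 1 library far from the other libraries of its group, and chance alone marks about 1 in 20 such groups. All 3 were in MIAPACA2 and near 0. MUC5AC was at 0.666 CPM (27 counts) in AM-9747 replicate 2 and at 0 in the other 7 MIAPACA2 libraries. CEACAM5 was at 0.332 CPM in AM-9747 replicate 4, and CEACAM6 at 0.110 CPM (4 counts) in vehicle replicate 2.

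The AM-9747 response differed between the lines for MSLN (adjusted p 0.00624, a fall in BXPC3 where the gene is abundant), MUC1 (adjusted p 5.14e-05, a fall in BXPC3 and PSN1 and a rise in MIAPACA2) and CEACAM6 (adjusted p 0.00514, a fall in BXPC3 beside a higher but uncalled level in PSN1). The CEACAM6 difference did not pass by limma voom (adjusted p 0.0882). The MUC1 calls within PSN1 and within MIAPACA2 were each lost without most of the single libraries.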

How the results depend on the processing

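The numbers of genes called moved with the way the spread was estimated. In BXPC3 5158 genes were called, with 2414 in the joint fit, 9598 by limma voom and 7119 with a replicate block. There 6 members were called, with 3 in the joint fit and 7 with a replicate block. In MIAPACA2 2456 genes were called, with 3708 by DESeq2, 1151 in the joint fit, 5192 by voom and 1700 with a replicate block. In that line 1 member was called, with 0 in the joint fit, 3 by voom and 0 with a replicate block. In PSN1 1954 genes were called, with 3662 by DESeq2, 5762 in the joint fit, 5485 by voom, 3355 with a replicate block and 794 without vehicle replicates 2 and 3, and 2 members, with 4 by DESeq2, 1 without scaling and 1 without those libraries. For the difference between lines, 2764 genes passed, with 4744 by DESeq2 and 4330 with a replicate block, and 3 members, with 5 and 6. By pair of lines, voom gave 1502 genes against 474 between BXPC3 and MIAPACA2, and a replicate block gave 3286 against 1906 between BXPC3 and PSN1 and 3776 against 2388 between MIAPACA2 and PSN1. Leaving out 1 library gave 3707 to 6763 genes and 6 to 7 members in BXPC3, 1142 to 3243 and 0 to 2 in MIAPACA2, 530 to 4370 and 1 to 3 in PSN1, and 1994 to 6105 and 3 to 5 for the difference. Counts moved by over 1.5 times without MIAPACA2 treated replicates 1, 2 or 4 or vehicle replicate 3 (1142 to 1389), without PSN1 treated replicates 1 to 4 or vehicle replicates 2 or 4 (530 to 1070), and, upward, without PSN1 vehicle replicate 1 (4370, and 6105 for the difference). Between BXPC3 and MIAPACA2 they moved so without BXPC3 treated replicates 2 or 3, MIAPACA2 vehicle replicate 3 or PSN1 vehicle replicate 3, between BXPC3 and PSN1 without BXPC3 treated replicates 2 to 4, BXPC3 vehicle replicates 1 to 3, PSN1 treated replicate 1 or PSN1 vehicle replicate 1, and between MIAPACA2 and PSN1 without MIAPACA2 treated replicates 1 or 2, MIAPACA2 vehicle replicates 2 or 3 or PSN1 vehicle replicate 1. For vehicle levels it gave 10484 to 11352 genes and 10 members (BXPC3 against MIAPACA2), 13365 to 15223 and 10 (BXPC3 against PSN1) and 11384 to 13480 and 6 to 8 (MIAPACA2 against PSN1). No scaling moved the median log2 change in MIAPACA2 from -0.00214 to 0.15, and the PSN1 one from 0.04 to 0.37. The split of calls went from 1218 higher and 1238 lower to 1922 and 637 for MIAPACA2, while PSN1 went from 826 and 1128 to 1212 and 541. The cause of these moves was not tested.

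In BXPC3 MSLN, MUC1 and MUC13, and in PSN1 MUC13, kept direction and call under every alternative run. Replicate numbers were not shown to pair the samples, and the correlations do not settle whether they do. Same-numbered libraries deviated together with r from -0.418 to 0.727 in BXPC3, -0.601 to 0.636 in MIAPACA2 and -0.354 to 0.734 in PSN1. Not every sample correlated best with its own number. With the replicate block MUC1 in MIAPACA2 was no longer called (log2 0.74, adjusted p 0.0674), and MUC16 in BXPC3 (log2 -0.47, adjusted p 0.0192) and MUC5AC in PSN1 (log2 -0.99, adjusted p 0.0204) were. In MIAPACA2 5 of 10 genes, and 1 of 10 in BXPC3 and in PSN1, were too low to test.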
